A study of Mus musculus with 12 samples.

Results

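The genes described here encode the parts of the proteasome, its activators and the chaperones that assemble it, in mouse embryonic fibroblasts treated for 24 h with an excess of a methyl cycle metabolite or with a methylation inhibitor. Members were the protein-coding genes of the deposited expression table whose symbol is Psma, Psmb, Psmc, Psmd, Psme or Psmg followed by a number, leaving out the 3 immunoproteasome genes Psmb8, Psmb9 and Psmb10. In the mouse annotation 47 genes meet these letters, and 45 of them stood among the 12591 genes of the table. Psma8 and Psmb11 were not listed. Psmc3ip and Psme3ip1 carry the letters because they are named for a protein they bind, so they are described at the end and the remaining 43 are called the proteasome genes.

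All dishes held PER2::LUC fibroblasts of the C57 strain, an immortalised line from mice that carry luciferase fused to the clock protein PER2, grown to confluence in 10% FBS medium. The medium was replaced with one containing 3.3 mM HCl alone (CTL), or the same HCl with 1 mM S-adenosylmethionine (SAM), 1 mM adenine, or 10 µM deazaneplanocin A (DZ), an inhibitor of S-adenosylhomocysteine hydrolase (AHCY). Polyadenylated RNA was sequenced from 3 dishes in each of the 4 groups, and the comparisons ask how the genes responded to each compound and whether SAM, which the cells can break down to adenine, differed from adenine at the same dose. The DZ dose is not matched to the other treatments, only 1 time was sampled, and dishes of 1 cell population are the replicates, so p-values measure only the spread between dishes, which may be technical.

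The proteasome degrades proteins that carry ubiquitin chains. Its 20S core is a barrel of 4 stacked rings, with gated alpha rings outside and beta rings inside, and its 19S cap has a base, whose ATPases unfold the substrate, and a lid, which removes the ubiquitin. Activator proteins can dock on the core in place of the cap, and dedicated chaperones guide the assembly of core and base. The transcription factor Nfe2l1 is known to raise proteasome genes together when proteolysis falls short, and interferon is known to raise Psme1, Psme2 and the immunoproteasome genes.

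Of the 43 proteasome genes, 31 encode subunits: 7 of the alpha ring, 4 structural and 3 catalytic ones of the beta ring, 6 base ATPases, 3 other base proteins and 8 lid proteins. The other 12 encode 3 base chaperones, 4 core chaperones and 5 activators. Their levels are given as deposited, in log2 CPM, the base 2 logarithm of reads scaled to library size. The number of reads behind a value ranged from 268 to 16616, and the standard deviation over 3 dishes had a median of 0.0386 and a maximum of 0.166 log2 CPM. A gene was called changed at a false discovery rate under 0.01 over all 12591 genes, from limma. The 12 libraries held 45649534 to 56789090 reads on listed genes. In bulk RNA, fewer cells of a kind and less of a transcript per cell cannot be told apart. Of 10 fibroblast markers 8 were listed, among them Col1a1, Col1a2, Vim and Thy1, whereas none of 5 endothelial and none of 6 epithelial markers were, and of 8 leukocyte markers only Cd68 was.

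A table of RefSeq promoters (build GRCm38.p6, 250 bases before to 50 bases after a start) held 36 of the 43 genes, and 3 motifs were looked for on both strands. The first, GAAA, any 2 bases and GAAA again, is the core of the element that interferon-activated factors bind. It stood in 5 of the 36 (13.9%), against 322 of 8821 genes of the table with a promoter (3.65%). The 5 windows of 30 bases are shown because Psme1 and Psmb3 rose under DZ, where interferon-stimulated genes also rose, and Psmg4 fell furthest under SAM. Psmg4, Psmd4 and Psmd9 carry the motif too and were not called under DZ. The motif is in capitals, and where it lies on the opposite strand it reads TTTC, 2 bases and TTTC.
Psme1 (chr14:55578493-55578522, plus strand): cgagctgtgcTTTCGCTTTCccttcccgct
Psmb3 (chr11:97703261-97703290, plus strand): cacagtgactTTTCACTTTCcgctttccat
Psmg4 (chr13:34162969-34162998, plus strand): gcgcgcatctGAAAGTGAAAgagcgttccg
Psmd4 (chr3:95042675-95042704, minus strand): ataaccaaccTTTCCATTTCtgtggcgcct
Psmd9 (chr5:123228021-123228050, plus strand): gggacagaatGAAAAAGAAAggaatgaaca
TGACNNNGC, the core of the antioxidant response element to which Nfe2l1 binds, stood in 6 of the 36 (16.7%) and in 1514 of 8821 genes (17.2%). All 6 windows are shown because their genes moved in different ways. The catalytic subunit gene Psmb5 fell under adenine and SAM, whereas the catalytic subunit gene Psmb6 and the ATPase gene Psmc6 fell in all 3 treatments. The lid gene Psmd12 rose under DZ and SAM, and the activator gene Psme4 fell under DZ only. The chaperone gene Psmd9 was called in none of the 3 treatments. CCAAT, the box bound by the factor NF-Y, stood in 12 of the 36 (33.3%) and in 3862 of 8821 genes (43.8%). A match describes letters only, and no binding was measured. The TGACNNNGC match is in capitals, as its reverse complement where it lies on the opposite strand.
Psmb5 (chr14:54618023-54618052, minus strand): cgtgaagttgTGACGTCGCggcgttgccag
Psmb6 (chr11:70525338-70525367, plus strand): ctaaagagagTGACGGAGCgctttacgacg
Psmc6 (chr14:45329587-45329616, plus strand): ccagccagtaGCTAAGTCAggcattgctca
Psmd12 (chr11:107479278-107479307, plus strand): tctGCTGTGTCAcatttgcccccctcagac
Psme4 (chr11:30771758-30771787, plus strand): cgctgcggctGCAGCGTCAccagaagagcc
Psmd9 (chr5:123228149-123228178, plus strand): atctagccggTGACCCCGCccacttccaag

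Under adenine the proteasome genes moved mostly down. Of 43 genes 21 fell and 1 rose, where 31.0% of all genes tested fell and 30.6% rose. Their median log2 fold change was -0.14, against -0.00 over all genes. The falls were spread over the catalytic beta subunits (3 of 3), the structural beta subunits (3 of 4), the base ATPases (5 of 6), the other base proteins (2 of 3) and the lid (4 of 8), while only 1 of 7 alpha subunits fell. Among the 38 proteasome genes averaging 5 log2 CPM or more, 20 fell and 1 rose, where 36.2% of the 6554 genes at that level fell and 31.5% rose, a background chosen after seeing the data.

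With DZ the balance was the other way. There 14 genes rose and 6 fell, where 22.6% of all genes tested rose and 23.4% fell, and the median log2 fold change was 0.06 against -0.01 over all genes. At that level, 12 of 38 rose (31.6%) and 6 fell (15.8%), against 27.1% and 24.8% of all such genes. Over the 31 subunits alone 10 rose and 5 fell, at a median of 0.02. In the 14 core subunits 4 rose and 3 fell, at a median of -0.002. The rises fell on the lid (4 of 8), the alpha ring (3 of 7), the activators (3 of 5), the ATPases (2 of 6), 1 structural beta subunit and 1 core chaperone. No catalytic subunit rose, and none of the 3 non-ATPase base proteins or the 3 base chaperones was called in either direction.

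SAM moved the genes in both directions. It lowered 18 and raised 10, where 35.7% of all genes tested fell and 33.7% rose, with a median log2 fold change of -0.03 against -0.02 over all genes. Of the 38 at the higher level, 17 fell and 8 rose, against 41.6% and 33.3%. All 6 ATPases fell, as did 2 of 3 catalytic and 2 of 4 structural beta subunits, 3 of 8 lid proteins and 2 of 4 core chaperones, whereas 3 of 7 alpha subunits, 3 of 5 activators, 2 of 3 base chaperones and 2 of 8 lid proteins rose. As shares of the 43 genes, 41.9% fell and 23.3% rose.

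These directions moved with the scaling of the libraries, for which the authors' factors ran from 0.962 to 0.968 in CTL and were 1.05 in SAM. With plain read totals instead, the all-gene median under SAM moved from -0.02 to 0.11, and the proteasome genes split into 20 higher and 9 lower in place of 10 and 18. Of all genes called under SAM, 61.2% were then higher in place of 48.5%. The adenine split became 5 higher and 19 lower, with 58.3% of all called genes higher in place of 49.7%. The DZ split became 15 and 6, with 55.2% of all called genes higher in place of 49.1%. Plain totals shift all genes of a library alike, so the median relative to that of all genes, -0.01 under SAM, could not move with them. It was 0.05 with quantile normalisation and -0.08 without SAM replicate 3. Median centring gave 6 higher and 19 lower under SAM and 0 and 25 under adenine, where 44.1% and 43.0% of all called genes were higher. Quantile normalisation gave 12 and 14 under SAM, where 47.5% of all called genes were higher.

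**Figure D1:**
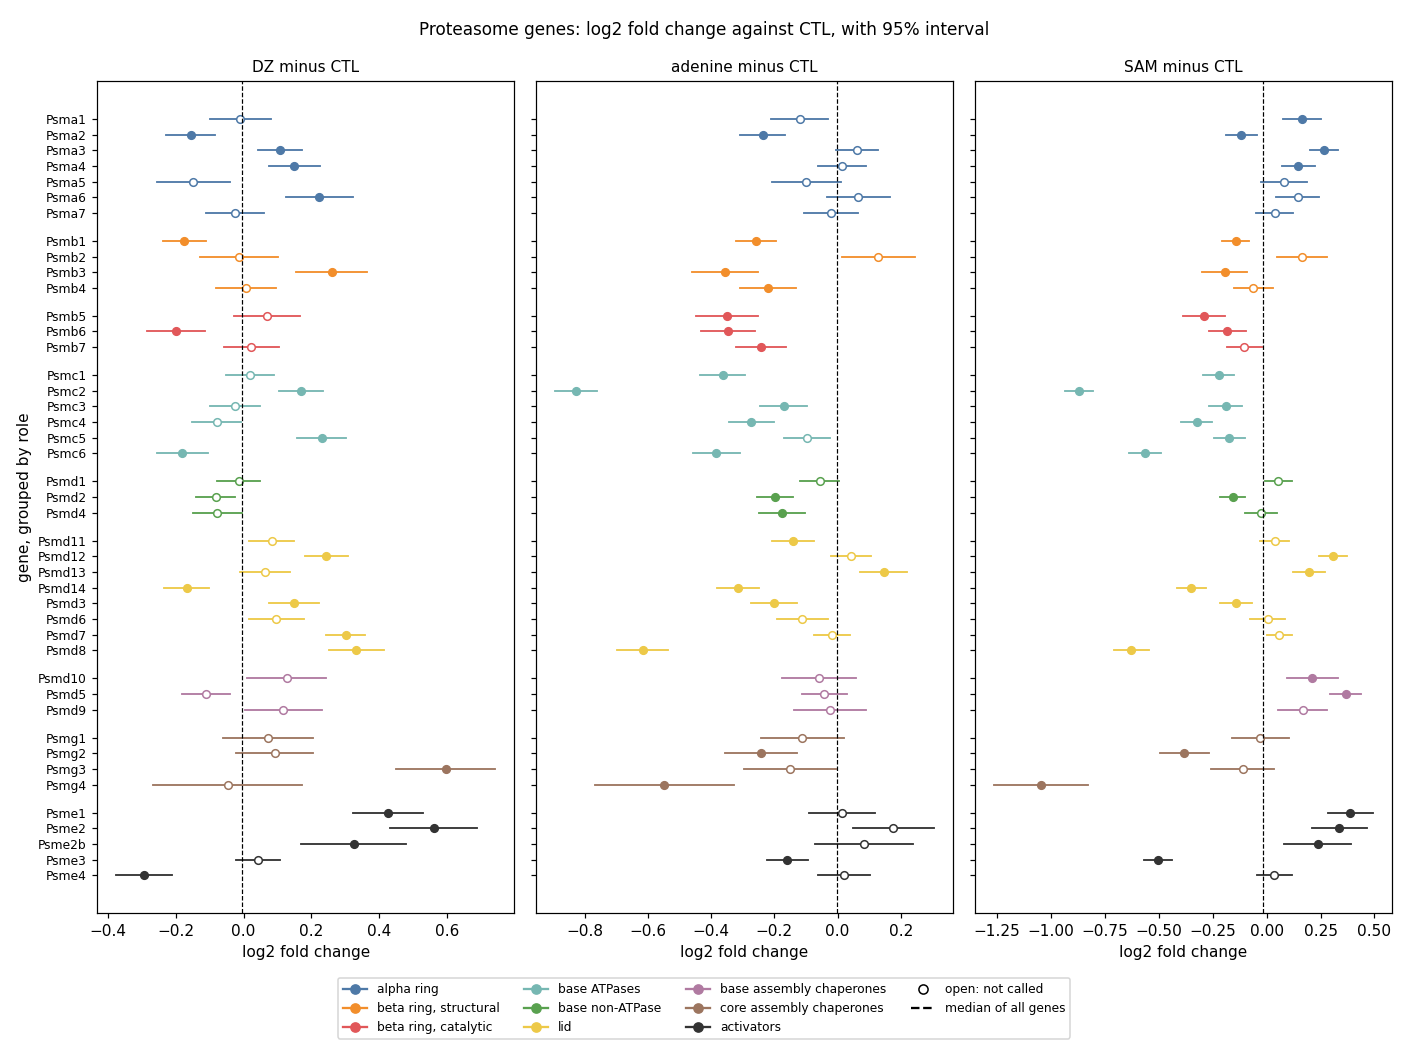
Log2 fold change against CTL (x axis) of each of the 43 proteasome genes (y axis, grouped and coloured by role) under DZ, adenine and SAM, with 95% intervals from limma on 3 libraries a group. Filled points were called, the dashed line is the median of all genes, and the x axes differ in span; Psmc2 and Psmd8 lie right of the line under DZ and far left of it under adenine and SAM.

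The catalytic subunits carry the proteolytic sites. Psmb5 (GRCm39 chr14:54850776-54855481, minus strand), the chymotrypsin-like subunit, had 6.92, 6.82 and 6.97 log2 CPM in the CTL libraries, 7.01, 6.99 and 6.91 under DZ, 6.60, 6.54 and 6.51 under adenine, and 6.57, 6.56 and 6.70 under SAM. All adenine and SAM libraries lay below all CTL libraries, whereas DZ and CTL overlapped. The log2 fold change was -0.35 (SE 0.0456, adjusted p = 5.04e-06 from limma) under adenine and -0.29 (SE 0.0456, adjusted p = 3.08e-05) under SAM, and the 95% interval under DZ was -0.03 to 0.17. Psmb6 (chr11:70416183-70418684, plus strand), the caspase-like subunit, had 7.32, 7.24 and 7.33 in CTL, 7.10, 7.07 and 7.12 under DZ, 7.01, 6.92 and 6.93 under adenine, and 7.08, 7.06 and 7.20 under SAM. It was lower than in every CTL library in all 9 treated libraries, and lowest under adenine. Its log2 fold changes were -0.20 with DZ, -0.35 with adenine and -0.18 with SAM, at adjusted p of 0.000635, 1.54e-06 and 0.000755 from limma. The fall under SAM was not called with plain read totals (-0.06) or quantile normalisation (-0.12). Psmb7 (chr2:38478044-38534099, minus strand), the trypsin-like subunit, had 6.92, 7.004 and 7.04 in CTL, 7.04, 7.01 and 6.98 under DZ, 6.74, 6.74 and 6.75 under adenine, and 6.83, 6.87 and 6.96 under SAM. The adenine libraries stood apart below all others, at a log2 fold change of -0.24 (SE 0.0377, adjusted p = 3.26e-05). SAM overlapped CTL and was not called at -0.10 (95% interval -0.18 to -0.02, adjusted p = 0.0209), but was called lower with median centring (-0.14), without CTL replicate 1 (-0.14) and without SAM replicate 3 (-0.14).

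Among the structural beta subunits, Psmb3 (chr11:97594073-97604335, plus strand) had no overlap between the libraries of the 4 groups. It had 6.38, 6.32 and 6.33 log2 CPM in CTL, 6.60, 6.56 and 6.65 under DZ, 6.05, 5.998 and 5.92 under adenine, and 6.11, 6.07 and 6.27 under SAM. DZ stood highest, then CTL, SAM and adenine, and SAM minus adenine, at 0.16, missed the threshold (adjusted p = 0.0117) and passed it in 5 alternatives, among them plain read totals (0.22) and the fit without SAM replicate 2 (0.20). Psmb3 rose under DZ by 0.26 on the log2 scale (adjusted p = 0.000337) whereas it fell by 0.36 with adenine (adjusted p = 9.04e-06) and fell by 0.19 with SAM (adjusted p = 0.00196). The fall under SAM was lost without CTL replicate 1 or SAM replicate 2, and with plain read totals (-0.07). Each of the 3 treatments lowered Psmb1, at -0.18 for DZ, -0.26 for adenine and -0.14 for SAM, the last not called with plain read totals (-0.02). Psmb4 fell under adenine alone of the 3 comparisons (by 0.22), and Psmb2 was called in none, with a 95% interval of 0.05 to 0.28 under SAM.

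The alpha ring forms the gate of the core. Under SAM Psma1, Psma3 and Psma4 rose by 0.16, 0.27 and 0.15 on the log2 scale, and under DZ Psma3, Psma4 and Psma6 rose by 0.11, 0.15 and 0.22. The rise of Psma1 was lost without CTL replicate 2, and that of Psma4 without CTL replicate 1 under SAM and without CTL replicate 1 or DZ replicate 2 under DZ. Psma2 was lower with each compound, at -0.16 for DZ, -0.24 for adenine and -0.12 for SAM, the last lost in 4 of 6 fits that left out 1 library and with plain read totals. Psma5 and Psma7 were called in none. Psma3 shares 665 bases at 100% identity with the pseudogene Gm13835, whose log2 fold changes were 0.14, 0.00 and 0.25 under DZ, adenine and SAM beside 0.11, 0.06 and 0.27 for Psma3, so how reads were split between them is uncertain. The rise of Psma3 under DZ was lost in each of the 6 fits without 1 library. In all, 10 of the 43 genes have a copy of at least 90% identity over at least 200 bases among the listed genes.

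The 6 base ATPases form the ring that unfolds substrates, and all 6 fell under SAM. Psmc2 (chr5:21989254-22008796, plus strand) had the largest fall of all proteasome genes under adenine. It read 7.61, 7.58 and 7.66 log2 CPM in the CTL libraries, 7.80, 7.76 and 7.80 under DZ, 6.76, 6.77 and 6.83 under adenine, and 6.72, 6.75 and 6.77 under SAM. All 3 DZ libraries were above and all 6 adenine and SAM libraries were far below CTL, while adenine and SAM overlapped. The level was 56.3% of CTL under adenine (log2 fold change -0.83, SE 0.0309, adjusted p = 2.52e-12 from limma) and 54.7% under SAM (-0.87, SE 0.0309, adjusted p = 7.99e-13). Under DZ it rose by 0.17 (SE 0.0309, adjusted p = 0.000267). SAM and adenine differed by -0.04 (95% interval -0.11 to 0.02).

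Psmc6 (chr14:45567215-45587169, plus strand) fell in every treatment. It had 7.81, 7.88 and 7.86 log2 CPM in CTL, 7.68, 7.65 and 7.67 under DZ, 7.41, 7.49 and 7.500 under adenine, and 7.26, 7.24 and 7.35 under SAM. The groups did not overlap and stood in that order from high to low. The log2 fold changes were -0.18, -0.38 and -0.57, with adjusted p of 0.000463, 1.06e-07 and 7e-10. Psmc5 (chr11:106146951-106156291, plus strand) had 6.40, 6.47 and 6.47 in CTL, 6.68, 6.66 and 6.69 under DZ, 6.34, 6.32 and 6.39 under adenine, and 6.26, 6.24 and 6.33 under SAM. It was higher than CTL in all 3 DZ libraries (0.23, adjusted p = 3.46e-05) and lower in all 3 SAM libraries (-0.17, adjusted p = 0.000227), whereas -0.10 under adenine was not called (95% interval -0.17 to -0.03). Psmc1, Psmc3 and Psmc4 fell under adenine by 0.36, 0.17 and 0.27 and under SAM by 0.22, 0.19 and 0.32, and were not called under DZ. With plain read totals 3 of the 6 ATPases stayed called under SAM (Psmc2, Psmc4 and Psmc6), while Psmc1, Psmc3 and Psmc5 did not, and under adenine Psmc3 did not. No ATPase was called higher under adenine or SAM in any of these scalings.

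The lid removes ubiquitin and holds the cap together. Psmd8 (chr7:28873612-28880135, minus strand), a lid subunit, had the pattern of Psmc2. It read 8.05, 7.96 and 8.06 log2 CPM in CTL, 8.32, 8.40 and 8.35 under DZ, 7.43, 7.38 and 7.41 under adenine, and 7.35, 7.36 and 7.48 under SAM. DZ libraries all lay above CTL and adenine and SAM libraries all below, overlapping each other. Psmd8 rose under DZ by 0.33 (SE 0.0381, adjusted p = 3.1e-06) and fell to 65.2% of CTL under adenine (adjusted p = 8.5e-10) and to 64.7% under SAM (adjusted p = 4.78e-10). Psmd3 (chr11:98573362-98586812, plus strand), another lid subunit, had 7.42, 7.34 and 7.42 in CTL, 7.54, 7.51 and 7.58 under DZ, 7.24, 7.16 and 7.18 under adenine, and 7.20, 7.29 and 7.26 under SAM. It was above CTL in every DZ library and below it in every adenine and SAM library. The sizes were small, at 0.15 (adjusted p = 0.00176), -0.20 (adjusted p = 8.47e-05) and -0.14 (adjusted p = 0.0015). The rise was lost without CTL replicate 2 or DZ replicate 3, and the fall under SAM without SAM replicate 1, with quantile normalisation (-0.07) or with plain read totals (-0.02).

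Psmd13 (chr7:140461854-140478560, plus strand), a structural lid subunit, was the only proteasome gene called higher under adenine. It had 5.75, 5.72 and 5.79 log2 CPM in CTL, 5.85, 5.80 and 5.81 under DZ, 5.90, 5.88 and 5.92 under adenine, and 6.003, 5.93 and 5.92 under SAM. Every treated library lay above every CTL library. The log2 fold change was 0.15 with adenine (adjusted p = 0.00155) and 0.20 with SAM (adjusted p = 9.31e-05), and 0.06 under DZ was not called (95% interval -0.01 to 0.14). With median centring the adenine value was 0.09 and not called, and Psmd13 overlaps Gm15542 on the same strand. Psmd14, the deubiquitinase of the lid, was lower with every compound, at -0.17 for DZ, -0.32 for adenine and -0.35 for SAM. With DZ Psmd12 rose by 0.24 and Psmd7 by 0.30, and with SAM Psmd12 rose by 0.31. Psmd11 fell under adenine by 0.14, not called with plain read totals (-0.08), and Psmd6 was called in none. Of the other base proteins, Psmd2, the scaffold of the base, fell under adenine by 0.20 and under SAM by 0.16, the latter lost with plain read totals, Psmd4, a ubiquitin receptor, fell under adenine by 0.18, and Psmd1 was not called.

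**Figure D2:**
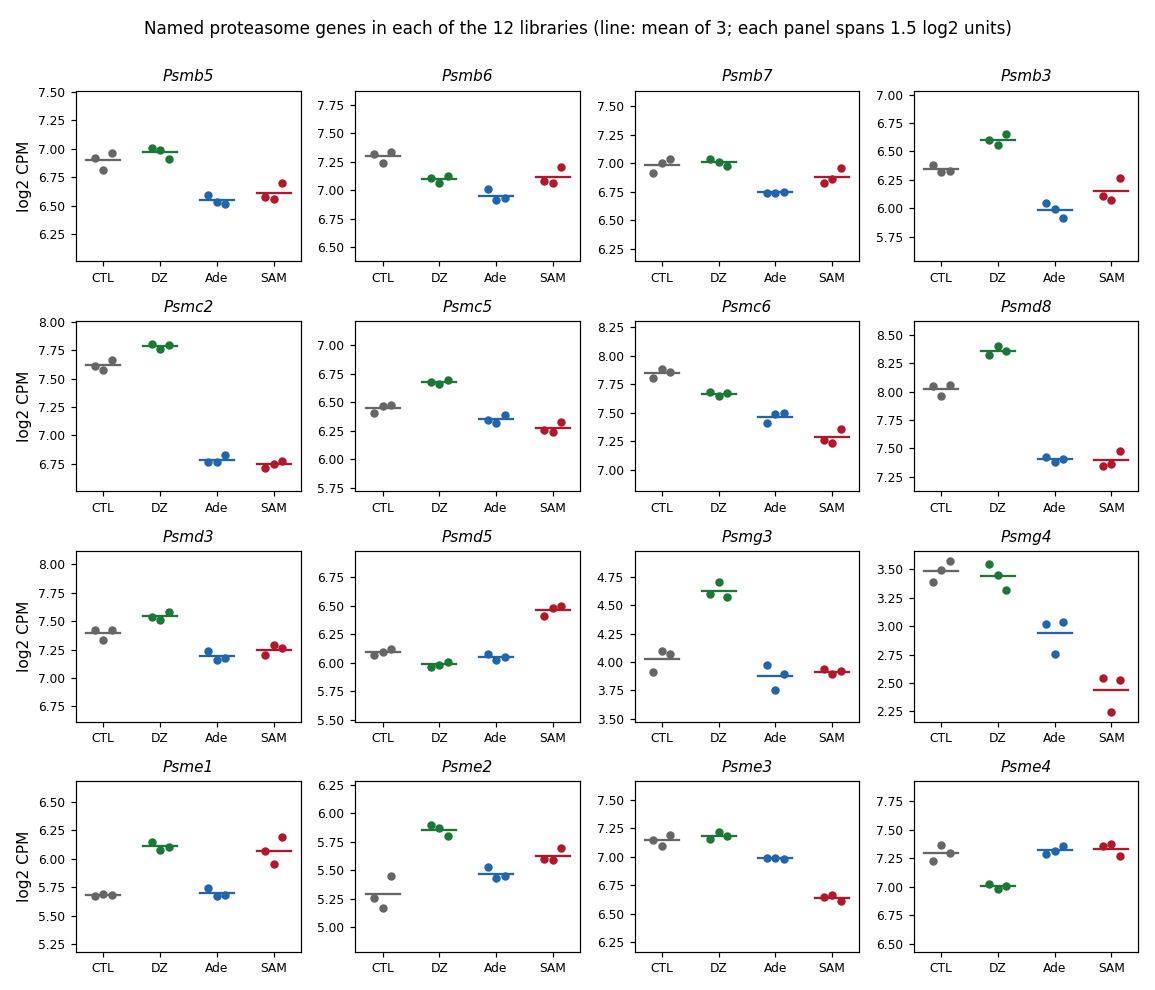
Log2 CPM (y axis) of 16 proteasome genes in each of the 12 libraries by group (x axis; Ade, adenine); points are libraries, lines are means of 3, and every panel spans 1.5 log2 units. Psmc2 and Psmd8 lie lowest under adenine and SAM and highest under DZ, Psmg3 is high under DZ alone, and Psmd5 is high under SAM alone.

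The core chaperones guide the building of the alpha ring. Psmg3 (chr5:139809347-139812741, minus strand) had 3.91, 4.09 and 4.07 log2 CPM in CTL, 4.59, 4.70 and 4.57 under DZ, 3.98, 3.75 and 3.90 under adenine, and 3.93, 3.89 and 3.92 under SAM. Only the DZ libraries lay apart, above all 9 others. The rise, 1.51-fold (0.60 on the log2 scale, SE 0.0687, adjusted p = 3.24e-06 from limma), was the largest of the proteasome genes under DZ, and it was larger than under adenine by 0.75 (adjusted p = 1.03e-07) and than under SAM by 0.71 (adjusted p = 1.44e-07). Its partner Psmg4 (chr13:34346937-34362166, plus strand) was the lowest in level of the 43 genes and had 3.39, 3.50 and 3.57 in CTL, 3.55, 3.45 and 3.32 under DZ, 3.02, 2.75 and 3.04 under adenine, and 2.54, 2.25 and 2.53 under SAM. DZ overlapped CTL, adenine lay below both, and SAM lay below adenine. Psmg4 was at 68.4% of CTL under adenine (adjusted p = 0.000202) and at 48.4% under SAM (log2 fold change -1.05, SE 0.103, adjusted p = 1.62e-07), the largest fall of any proteasome gene. SAM minus adenine was -0.50 on the log2 scale (SE 0.103, adjusted p = 0.000809). Psmg2 fell by 0.24 under adenine and 0.38 under SAM, and Psmg1 was called in none.

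The base chaperones hold ATPase pairs until the base is complete. Psmd5 (chr2:34739746-34764980, minus strand) had 6.07, 6.09 and 6.12 log2 CPM in CTL, 5.96, 5.98 and 6.01 under DZ, 6.08, 6.03 and 6.05 under adenine, and 6.41, 6.48 and 6.50 under SAM. It was high in the 3 SAM libraries only, 1.29-fold over CTL (log2 fold change 0.37, SE 0.0335, adjusted p = 6.67e-08) and higher than under adenine by 0.41 (adjusted p = 1.04e-07). Under DZ all 3 libraries lay below CTL, at -0.11, which missed the threshold (adjusted p = 0.0102) and passed it with median centring, with quantile normalisation and with a filter at a mean of 3 log2 CPM. Psmd10 rose under SAM by 0.21, a call lost when replicate 3 of SAM or replicate 1 or 2 of CTL was left out, and Psmd9 at 0.17 missed the threshold (adjusted p = 0.0102).

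The activators divided by partner. Psme1 (chr14:55815190-55822034, plus strand) and Psme2 (chr14:55824895-55829173, minus strand) form 1 ring, known to be raised by interferon and to serve antigen processing. Psme1 had 5.68, 5.69 and 5.68 log2 CPM in CTL, 6.15, 6.08 and 6.10 under DZ, 5.74, 5.67 and 5.68 under adenine, and 6.07, 5.95 and 6.19 under SAM. DZ and SAM libraries all lay above CTL and overlapped each other, and adenine overlapped CTL. The log2 fold change was 0.43 with DZ (SE 0.0488, adjusted p = 3.07e-06), 0.39 under SAM (adjusted p = 2.78e-06) and 0.01 under adenine (95% interval -0.09 to 0.12). Psme2 had 5.26, 5.17 and 5.45 in CTL, 5.90, 5.87 and 5.80 under DZ, 5.53, 5.43 and 5.45 under adenine, and 5.60, 5.59 and 5.70 under SAM. CTL replicate 3 stood above the other two and overlapped adenine, and DZ and SAM libraries lay above CTL, DZ highest. Psme2 rose by 0.56 with DZ (adjusted p = 1.46e-06) and by 0.34 with SAM (adjusted p = 0.000104), whereas 0.18 with adenine was not called (adjusted p = 0.0156) but passed without CTL replicate 3 (0.26) and with plain read totals (0.24). Psme2b, a copy of Psme2 at 99.4% identity, rose by 0.32 under DZ and 0.24 under SAM. The SAM call was lost in 5 of 6 fits without 1 library (not without SAM replicate 2), and reads could have been split between the copies in counting.

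Psme3 (chr11:101206777-101215813, plus strand), which forms a nuclear activator, had 7.15, 7.10 and 7.19 log2 CPM in CTL, 7.15, 7.22 and 7.19 under DZ, 6.99, 6.99 and 6.98 under adenine, and 6.65, 6.66 and 6.61 under SAM. The SAM libraries lay far below adenine, and adenine below CTL. It fell under SAM to 70.5% of CTL (log2 fold change -0.50, SE 0.0305, adjusted p = 4.54e-10) and under adenine by 0.16 (adjusted p = 0.000251), and SAM minus adenine was -0.35 (adjusted p = 2.33e-07). Psme4 (chr11:30721725-30830376, plus strand), an activator linked to histone degradation, had 7.23, 7.37 and 7.30 in CTL, 7.03, 6.98 and 7.003 under DZ, 7.29, 7.31 and 7.36 under adenine, and 7.36, 7.37 and 7.27 under SAM. It was low in the DZ libraries only, at a log2 fold change of -0.29 (SE 0.0384, adjusted p = 1.14e-05 from limma), and it was the 1 proteasome gene called lower under DZ than under adenine (-0.32, adjusted p = 2.38e-06). Under SAM it was not called at 0.04, and was called with plain read totals (0.16) and quantile normalisation (0.11).

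Grouped by the 3 comparisons with CTL, which share the CTL libraries, the commonest pattern was a fall under adenine and SAM with no call under DZ (8 of 43 genes, against 11.2% of all 12591: Psmb5, Psmc1, Psmc3, Psmc4, Psmd2, Psmg2, Psmg4 and Psme3). A rise under DZ and SAM with no call under adenine followed (6 genes, against 1.72%: Psma3, Psma4, Psmd12, Psme1, Psme2 and Psme2b). Among these, the DZ call of Psma3 was lost in all 6 fits without 1 library, and the SAM call of Psme2b in 5 of 6. That of Psma4 was lost in 2 such fits under DZ and 1 under SAM. Psme2b is a copy of Psme2 at 99.4% identity, so the 2 may share reads. Another 5 fell in all 3 treatments (against 1379 of all 12591: Psma2, Psmb1, Psmb6, Psmc6 and Psmd14), 4 rose under DZ and fell under adenine and SAM (against 3.9%: Psmb3, Psmc2, Psmd3 and Psmd8), and 7 were called in none (against 15.2%). These shares are descriptions, with no test. Psmc5 was the only other gene called in opposite directions.

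Summed over all 43 genes, the share of reads was 0.454 to 0.468% in the CTL libraries, 0.482 to 0.485% under DZ, 0.415 to 0.421% under adenine, and 0.452 to 0.476% under SAM. DZ lay above and adenine below CTL without overlap, and SAM overlapped CTL. On the deposited scale, which uses the authors' library sizes, the summed CPM was 4772 ± 83.9 (SD, n = 3) in CTL and 4389 ± 114 under SAM, and every SAM library lay below every CTL library. The 14 core subunits took 0.147 to 0.154% in CTL, 0.152 to 0.155% under DZ, 0.139 to 0.143% under adenine and 0.156 to 0.170% under SAM. The 17 cap subunits took 0.247 to 0.253%, 0.266 to 0.267%, 0.217 to 0.220% and 0.231 to 0.240%, in the same order. Under SAM the core share was thus above and the cap share below CTL, as shares of plain read totals. On the deposited scale the summed CPM of the core was 1566 ± 38.3 (SD, n = 3) in CTL and 1534 ± 67.7 under SAM, and that of the cap 2587 ± 39.6 and 2232 ± 41.2. On that scale the core overlapped CTL and the cap stayed below it.

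**Figure D3:**
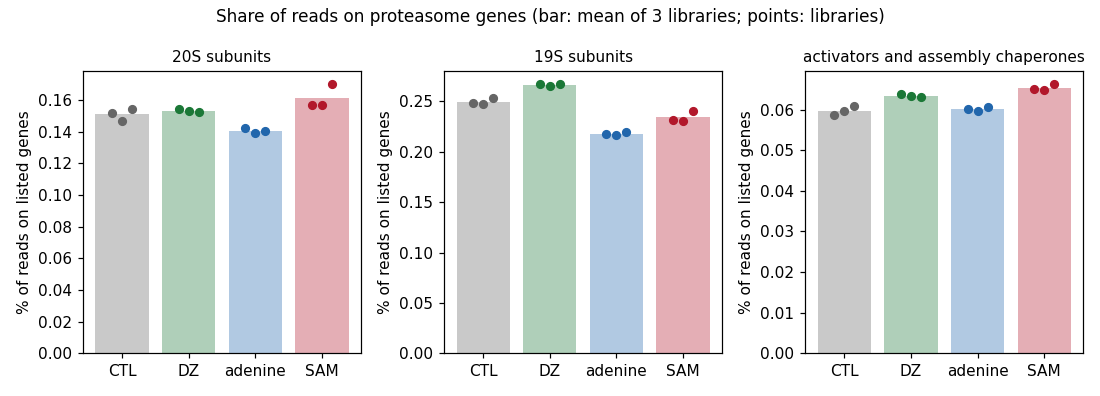
Percent of reads on listed genes (y axis, from 0) taken by the 14 core (20S) subunit genes, the 17 cap (19S) subunit genes and the 12 activator and chaperone genes in the 12 libraries by group (x axis); bars are means of 3 libraries and points are libraries. Adenine is lowest for core and cap, and 1 SAM library (replicate 3) stands above the other SAM libraries for the core, at 0.170%.

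SAM replicate 3 stood apart for these genes. It was the highest of the 3 SAM libraries in 32 of the 43 genes, with a median of 0.09 log2 CPM above the mean of the other two, against 0.00 over all genes. CTL replicate 3 was likewise the highest of its group in 28 of 43, by a median of 0.05. Without SAM replicate 3, SAM lowered 19 and raised 8 proteasome genes in place of 18 and 10, where 4419 of all 12591 genes fell and 4196 rose.

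At the matched dose of 1 mM, SAM left more proteasome genes higher than adenine did. Of 43 genes 18 were higher and 3 lower under SAM than under adenine, where 20.8% of all genes tested were higher and 22.0% lower, and the median log2 difference was 0.11 against 0.00. The core accounted for 9 of the 18 (9 of 14 core subunits higher, 0 lower), with Psma1 at 0.28 (adjusted p = 4.27e-05), Psma3 at 0.20 (adjusted p = 5.31e-05) and Psma5 at 0.18 (adjusted p = 0.00765). The Psma5 call was lost in 4 of 6 fits without 1 library, among them those without SAM replicate 3 and without adenine replicate 3, and with a replicate block (adjusted p = 0.0124), whereas those of Psma1 and Psma3 held in all 6. Without SAM replicate 3 the count over all 43 was 10 higher and 3 lower, where 2374 of all 12591 genes were higher and 2581 lower. In the core 2 of 14 were higher in that fit, a smaller share than over all genes. The median over all 43 was then 0.09. Leaving out adenine replicate 3 gave the same count of 10 higher and 3 lower, where 2114 of all genes were higher and 2376 lower. The number of calls thus rests on single libraries, while the direction held in every fit. The catalytic subunits Psmb6 and Psmb7 were higher under SAM by 0.16 (adjusted p = 0.003) and 0.14 (adjusted p = 0.00574), neither called without SAM replicate 3, and Psmb5 differed by 0.06 (95% interval -0.04 to 0.16).

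The 3 genes lower under SAM than under adenine were Psme3, Psmg4 and Psmc6, the last at -0.18 (adjusted p = 0.000498). Each of these was also called lower under adenine than in CTL. The largest difference in the other direction was in Psmd5, followed by Psme1 at 0.37 (SE 0.0488, adjusted p = 1.35e-05). For Psmc2 and Psmd8, the genes furthest below CTL under adenine, SAM and adenine did not differ beyond the spread, at -0.04 (95% interval -0.11 to 0.02) and -0.01 (-0.09 to 0.07). In the 6 ATPases 1 was higher (Psmc1, 0.14) and 1 lower (Psmc6), and the other 4 were not called.

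DZ was given at 10 µM and the others at 1 mM, so the next differences compare treatments as used. Of 43 genes 29 were higher and 1 lower under DZ than under adenine, where 32.1% of all genes tested were higher and 32.2% lower, at a median of 0.19 log2 against -0.00. All 6 ATPases were higher, from 0.14 for Psmc3 to 1.00 for Psmc2 (adjusted p = 5.93e-13), and so were 14 of 17 cap subunits and 7 of 14 core subunits. Against SAM, 18 were higher and 7 lower under DZ, where 35.0% were higher and 34.0% lower. All 6 ATPases were again higher, whereas the core split into 3 higher and 4 lower (Psma1, Psma3, Psma5 and Psmb2). With plain read totals the split against SAM was 14 and 14, with 40.8% of all called genes higher. The largest differences against SAM were Psmc2 at 1.04, Psmg4 at 1.00 and Psmd8 at 0.96, and the largest in the other direction was Psmd5 at -0.48 (adjusted p = 2.82e-09).

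**Figure D4:**
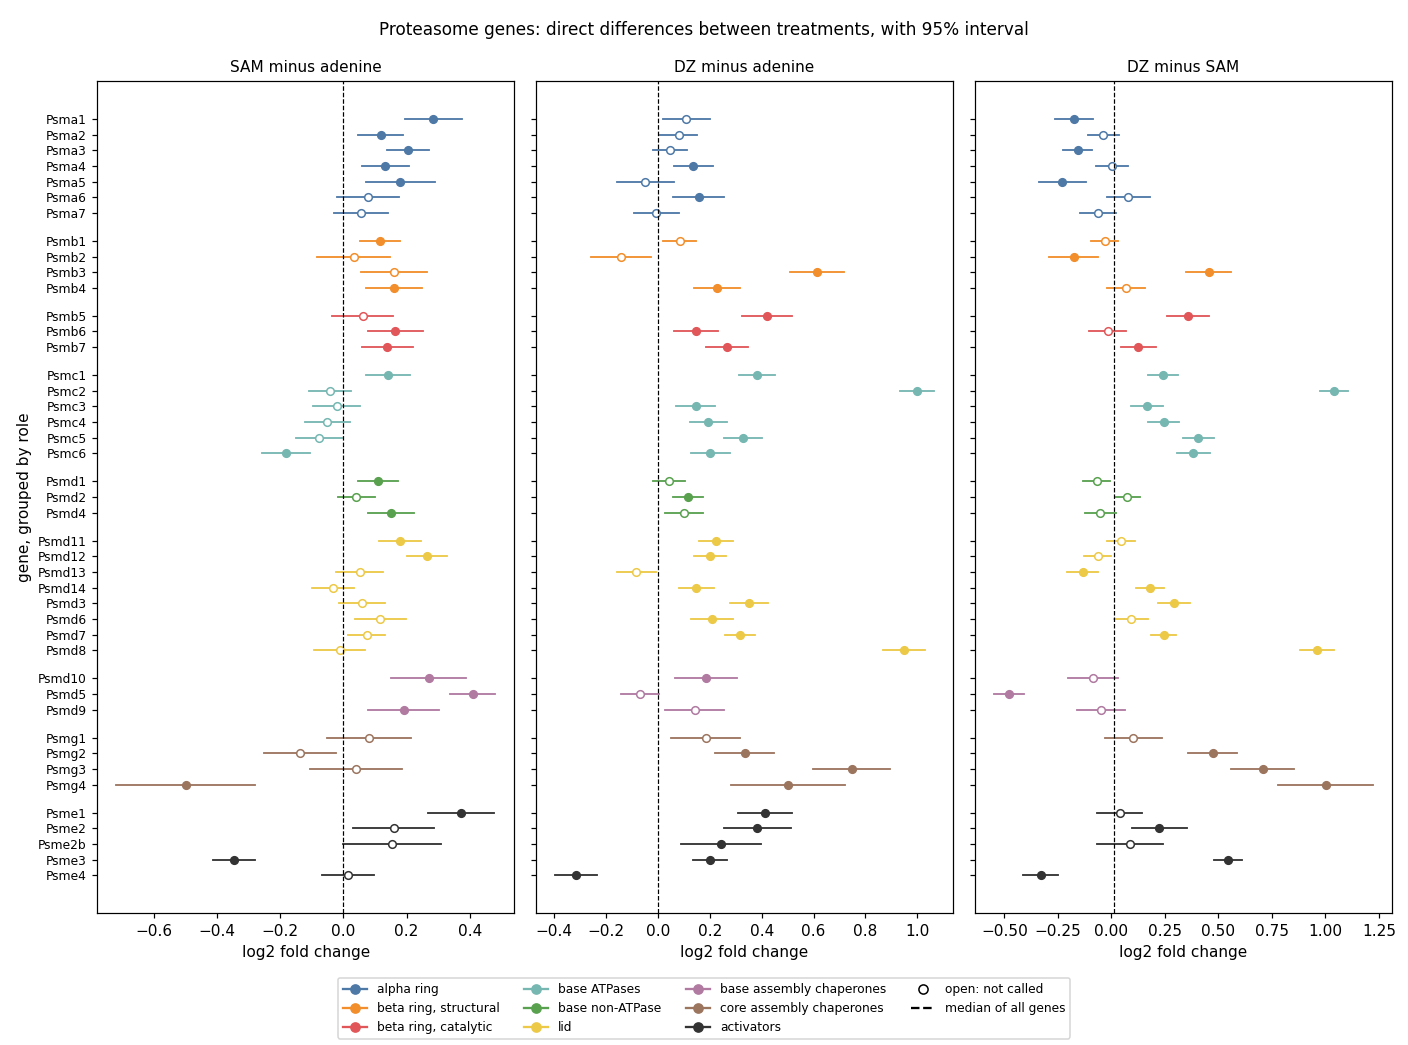
Log2 difference between treatments (x axis) for each of the 43 proteasome genes (y axis, grouped and coloured by role), with 95% intervals; filled points were called and the dashed line is the median of all genes. The x axes differ in span; most core subunits lie right of the line in SAM minus adenine, and all 6 ATPases are called higher in DZ minus adenine and DZ minus SAM.

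Compared per kilobase of transcript in CTL, which allows levels of different genes to be set side by side, the 31 subunits had a median of 6.13 log2 CPM per kb and ranged from 4.09 (Psmb2) to 7.39 (Psmd8). The 12 chaperones and activators had a median of 4.26. The 6 ATPases ranged from 5.77 (Psmc1) to 6.67 (Psmc6), the 3 base chaperones from 3.74 (Psmd10) to 3.96 (Psmd5) and the 4 core chaperones from 4.19 (Psmg3) to 4.75 (Psmg2). The canonical transcript length used here need not be the one the cells make.

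The genes around the proteasome were taken from fixed lists, none of which was tested as a set. The counts of each list stand beside the shares of all genes tested. These were 22.6% higher and 23.4% lower under DZ, 30.6% and 31.0% under adenine, and 33.7% and 35.7% under SAM. Of 21 regulators, receptors and assembly partners, 20 were listed, and 5 rose and 5 fell under DZ, 1 and 8 under adenine, and 7 and 10 under SAM. Nfe2l1, the factor that raises proteasome genes, had 9.15, 9.13 and 9.11 log2 CPM in CTL, 9.06, 9.09 and 9.06 under DZ, 8.48, 8.52 and 8.504 under adenine, and 7.87, 7.84 and 7.75 under SAM. It lay below CTL in every adenine and SAM library, at -0.63 (adjusted p = 3.91e-11) and -1.31 (adjusted p = 6.78e-15), and SAM minus adenine was -0.68 (adjusted p = 8.86e-11). Akirin2, which carries proteasomes into the nucleus, fell by 0.71 under adenine and 0.68 under SAM. Ecpas, a scaffold that binds the cap, fell in all 3 (by 0.29, 0.53 and 0.80). Rad23b, a shuttle for ubiquitylated proteins, rose under DZ by 0.33, and it fell by 0.17 under adenine and 0.15 under SAM. Pomp, the chaperone of core maturation, rose under DZ by 0.25 and SAM by 0.26.

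Upstream of the proteasome, 10 genes of the unfoldase p97 and its cofactors were listed, of which 1 rose and 2 fell under DZ, 1 and 8 under adenine, and 2 and 6 under SAM. Ubxn1, a cofactor, fell by 0.18, 0.52 and 0.54, whereas Vcp, which encodes p97 itself, was at 0.04, -0.07 and 0.08, of which the last was called. Of 6 ubiquitin and E1 enzyme genes, 0 rose and 4 fell under DZ, 2 and 4 under adenine, and 1 and 4 under SAM. Rps27a, which encodes ubiquitin fused to a ribosomal protein, fell by 0.93 under DZ, 1.36 under adenine and 1.45 under SAM. Uba1, the main E1 enzyme, fell by 0.12, 0.19 and 0.28.

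Of 9 immunoproteasome and peptide loading genes 7 were listed, and 7 rose and 0 fell under DZ, 4 and 2 under adenine, and 5 and 1 under SAM. Psmb10, the only immunoproteasome subunit among them, rose by 1.06 under DZ, 0.62 under adenine and 1.15 under SAM (adjusted p = 7.81e-10). Tap1, which carries peptides to the loading complex, rose by 1.40 under DZ and 0.86 under SAM. Of 9 listed interferon-stimulated genes 9 rose under DZ, 8 fell under adenine, and 2 rose and 5 fell under SAM, with a summed level of 228 to 242 CPM in CTL, 1166 to 1244 under DZ, 121 to 131 under adenine and 198 to 206 under SAM. Under DZ these genes thus moved with Psme1, Psme2 and Psmb10, and their part in those rises was not tested. Under SAM Psme1, Psme2 and Psmb10 rose while the summed interferon-stimulated genes lay below CTL.

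Other measures moved with the treatments. Of 8 proliferation genes 5 rose and 0 fell under DZ, 7 and 1 under adenine, and 7 and 1 under SAM, and their summed level was 700 to 721 CPM in CTL, 732 to 823 under DZ, 1573 to 1640 under adenine and 1797 to 1890 under SAM. Their part in the falls of proteasome genes under adenine and SAM was not tested. The summed fibroblast markers were at 21982 to 22422 CPM in CTL, 27804 to 28387 under DZ, 24630 to 26907 under adenine and 16331 to 17661 under SAM. Of the 8 listed, 6 rose and 1 fell under DZ, 5 and 1 under adenine, and 7 and 1 under SAM, where the log2 fold changes ran from -1.58 to 1.70 with a median of 0.41, so under SAM the sum and most of its genes went opposite ways. Cd68, the 1 leukocyte marker listed, averaged 1.796 ± 0.200 log2 CPM (SD, n = 3) in CTL, 1.69 ± 0.234 under DZ, 3.52 ± 0.0953 under adenine and 4.07 ± 0.0968 under SAM, and the other 7, Ptprc and Itgam among them, were not listed. Its part was not tested.

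**Figure D5:**
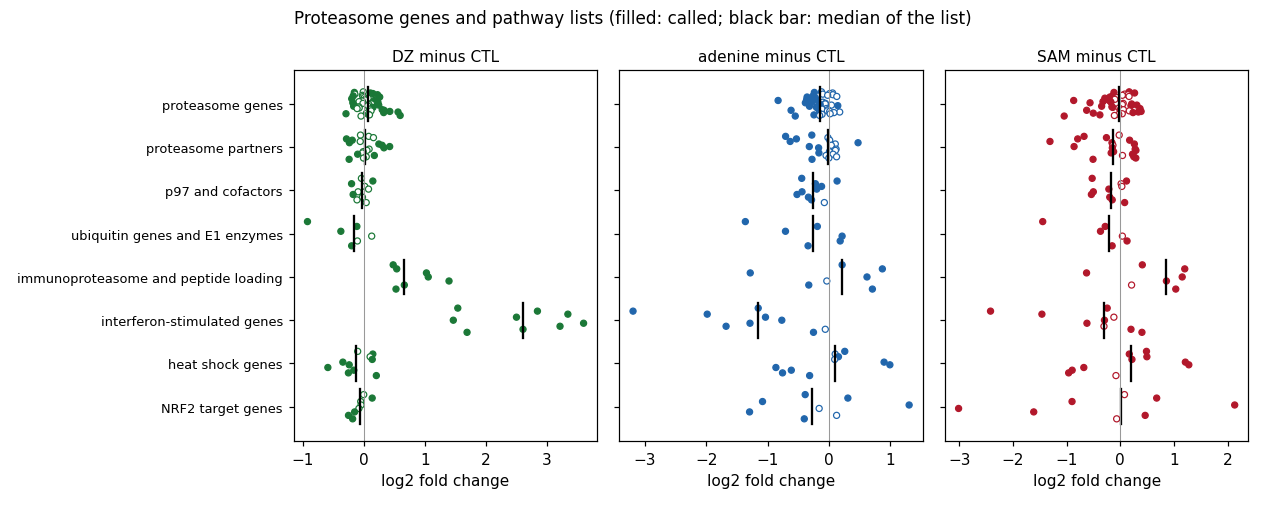
Log2 fold change against CTL (x axis) of the proteasome genes and of 7 fixed gene lists (y axis) under DZ, adenine and SAM; filled points were called and black bars are medians of a list. The proteasome genes span less than the interferon-stimulated genes, which lie right of 0 under DZ and left of it under adenine.

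The 2 genes named for a partner went other ways. Psmc3ip (chr11:100981704-100986276, minus strand), which acts in meiotic recombination, had 2.198, 2.14 and 1.91 log2 CPM in CTL, 2.60, 2.54 and 2.87 under DZ, 3.65, 3.76 and 3.77 under adenine, and 3.83, 3.95 and 4.04 under SAM. All treated libraries lay above CTL, with adenine and SAM highest. It rose 1.5-fold with DZ (adjusted p = 0.00015), 3.12-fold with adenine (log2 fold change 1.64, SE 0.1, adjusted p = 7.47e-10) and 3.61-fold with SAM (adjusted p = 1.18e-10). Under adenine and SAM it rose further than any proteasome gene, whereas under DZ Psmg3 rose slightly further (0.60 against 0.59 on the log2 scale). Psme3ip1 (chr8:95300023-95328625, minus strand), which binds PSME3, had 5.92, 5.97 and 5.99 in CTL, 6.05, 5.96 and 5.98 under DZ, 5.77, 5.72 and 5.86 under adenine, and 5.77, 5.79 and 5.82 under SAM. DZ overlapped CTL, and adenine and SAM lay below it, at -0.17 (adjusted p = 0.00115) and -0.16 (adjusted p = 0.00178), neither called with plain read totals.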

How the data were processed

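RNA was measured in 12 libraries, 3 dishes for each of 4 groups taken from the labels. The authors trimmed reads with Trimmomatic, aligned them to GRCm39 with HISAT2, counted with StringTie and normalised with edgeR, per the submitters' processing notes and the study's methods; versions are not given in the sources used here. The deposited table holds log2 CPM of 12591 genes, after a filter on low counts, and no raw counts. Every deposited log2 value, at a prior count of 2, came out as a whole number of reads within 0.05 (100% in each library), which gave the depth and the plain read totals. The library kit keeps strand. Gene identifiers were matched to GENCODE (12575 of 12591), in R 4.3.3 and Python 3.11.15.

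Groups were compared with limma 3.58.1 (1 model of the 12 libraries, a variance trend, two-sided, Benjamini-Hochberg over all 12591 genes, called at a false discovery rate under 0.01). On simulated data the fit for DZ against CTL recovered 91% of genes changed by 0.5 log2 and 100% of those changed by 1, at a false share of 1.04%, over 12591 genes. The simulation changed far fewer genes than were called here, equally up and down, with a single dispersion for all genes. It therefore cannot measure errors that come from the scaling of the libraries. Members, roles and lists were chosen with earlier results of these data known. Members with values in every library were, in each treatment, the 3 called with the largest rise and the 3 with the largest fall, the catalytic subunits, Psme1 to Psme4, up to 5 called in opposite directions, and the 2 genes named for a partner. Of each list, genes with the smallest adjusted p were named first, some of which are not reported here; Pomp, Rad23b, Vcp and the single members Psma1 to Psmg2 were chosen after their values were seen. Near copies were found with BLAST 2.17.0. Alternatives were other scalings, filters, variance models, thresholds, a pseudocount of 1 CPM, voom on the recovered reads, the replicate number as a block, and each library left out; the background at a mean of at least 5 log2 CPM was added after seeing the data.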

Additional observations from a re-analysis of the deposited data

How the results depend on the processing

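The 19 genes given in every library had 76 results. Over 1292 alternative fits 1246 kept the side of the threshold, 26 lost the call, 20 gained it and 0 reversed. Values near 0 that were not called could still change sign among the 1246. Asking for a log2 fold change of at least 0.5 beside the false discovery rate left 2 proteasome genes called under DZ, 3 under adenine, 5 under SAM, 0 between SAM and adenine, 5 between DZ and adenine and 5 between DZ and SAM. All genes were not counted at that threshold, so whether these counts are many or few for genes in general is not known. Between SAM and adenine the 21 calls became 12 without a variance trend and 13 from the 6 libraries of these groups alone, and 13 to 19 with 1 library left out. The calls held in every fit without 1 library for 17 of 20 genes under DZ, 22 of 22 under adenine, 21 of 28 under SAM, 12 of 21 between SAM and adenine, 25 of 30 between DZ and adenine and 21 of 25 between DZ and SAM.

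The median log2 fold change under DZ was 0.0482 with median centring, 0.0420 with quantile normalisation, 0.0880 with plain read totals and 0.0185 over the 31 subunits alone, and 0.0311 to 0.0639 with 1 library left out, lowest without CTL replicate 2. Under adenine it was -0.1930 with median centring, -0.0800 with plain read totals and -0.1767 over the 31 subunits, and -0.1569 to -0.1227 with 1 library left out. Under SAM its sign reversed with quantile normalisation (0.0213) and with plain read totals (0.0919), and it was -0.1034 over the 31 subunits alone and -0.0890 without SAM replicate 3. With median centring and plain read totals the medians move by construction, since these shift whole libraries. Quantile normalisation does not shift all genes of a library alike. With it the SAM median relative to that of all genes moved from -0.01 to 0.05. For this and the other changes the cause was not tested.

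Over all genes the replicate numbers did not pair the libraries: in 18 pairs with the same number, deviations correlated from -0.142 to 0.181, with 1 pair over 0.1. That pair was replicate 3 of CTL and of SAM, the highest of their groups in 28 and 32 of the 43 proteasome genes. With a replicate block the calls were 20 under DZ, 22 under adenine, 29 under SAM, 20 between SAM and adenine, 31 between DZ and adenine and 25 between DZ and SAM. The read number limits Psmg4 and the other genes near 268 reads most.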

Other observations

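Of 10 listed heat shock genes, which encode chaperones of misfolded proteins, 3 rose and 5 fell under DZ, 4 and 4 under adenine, and 6 and 3 under SAM. For this list and the next, the shares of all genes are those given with the fixed lists above. Hspa1a, an inducible chaperone, had 3.93, 3.88 and 3.79 log2 CPM in CTL, 3.47, 3.59 and 3.49 under DZ, 4.82, 4.73 and 4.74 under adenine, and 5.10, 5.02 and 5.11 under SAM. It fell under DZ by 0.34 (adjusted p = 9.79e-05 from limma) and rose under adenine by 0.90 (adjusted p = 9.77e-10) and under SAM by 1.21 (adjusted p = 1.87e-11). Hspa8, its constitutive relative, fell by 0.59, 0.86 and 0.68, and the mitochondrial chaperones Hspd1 and Hspe1 fell in all 3 treatments, by 0.90 and 0.96 under SAM.

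Of 8 target genes of the antioxidant factor NRF2, 1 rose and 3 fell under DZ, 2 and 4 under adenine, and 3 and 3 under SAM. Sqstm1, a receptor that brings ubiquitylated proteins to autophagy, fell by 0.15 under DZ, 1.29 under adenine and 1.61 under SAM (adjusted p = 1.77e-16). Nqo1, a quinone reductase, was at -0.05 under DZ and rose by 1.31 under adenine and 2.13 under SAM (adjusted p = 6.38e-11). Slc7a11, a cystine transporter, was at -0.08 and -0.16 under DZ and adenine and fell by 3.02 under SAM, where SAM minus adenine was -2.86 (adjusted p = 3.37e-15).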
